A study of Mus musculus with 40 samples.

Results

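Zscan4c, Zscan4d, Zscan4f, Tcstv3, Tmem92, Zfp352, Usp17la and Usp17lc are genes of the 2-cell-like state of mouse embryonic stem (mES) cells. These 8 of the 56748 genes in the count tables were taken by name, as genes known for this state, and all 8 were found in both the table of uniquely mapped reads and the table of multimapped reads. The choice was made with earlier results of these data known, so counts of these 8 beside shares of all genes are descriptive. All 8 also passed the filter on low counts, so each could be tested, although most of their reads came from a single group. RNA was sequenced from 40 cultures of 4 genotypes at 2 stages. Beside wild type (WT) cells there were cells with a knockout of Lbr, which encodes the lamin B receptor of the inner nuclear membrane (LBRKO), cells lacking all lamins through knockout of Lmna, Lmnb1 and Lmnb2 (TKO), and TKO cells in which Lbr was disrupted as well (QKO). Naive mES cells were kept in 2i with LIF, and epiblast-like cells (EpiLCs), a culture model of the implanting epiblast, were made from them over 48 h using FGF at 20 ng/mL and Activin A at 12 ng/mL. WT had 8 libraries at each stage, and LBRKO, TKO and QKO had 4 each. The QKO cells came from 1 clone of the TKO line, in which the Lbr alleles included an in-frame deletion beside a frameshift, and the labels do not say which of several LBRKO clones a library came from. The TKO line and its WT littermate line were made elsewhere, and populations with abnormal chromosome counts were found among the karyotyped lines. The labels do not state that the libraries of a group came from separate experiments, so p-values measure the spread between these cultures, which may be technical.

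In the mouse embryo, the 2-cell stage is when the zygotic genome is first broadly transcribed, and a burst of genes and of the endogenous retrovirus MERVL is expressed there and then silenced. In cultures of naive mES cells a small, changing fraction of cells re-expresses these transcripts for a short time, and such cells are called 2-cell-like. Dux, a homeobox factor, switches the state on by binding MERVL elements and gene promoters, and Dppa2 and Dppa4 act upstream of Dux. In RNA from a whole culture, a lower value can come from fewer cells in this state or from less RNA per cell, and these cannot be told apart. The 8 genes differ in what they encode. Zscan4c, Zscan4d and Zscan4f encode zinc finger proteins with a SCAN domain, known for telomere lengthening in mES cells. Tcstv3 belongs to a family of small proteins linked to telomere maintenance, Zfp352 encodes a zinc finger protein, Tmem92 a transmembrane protein, and Usp17la and Usp17lc encode deubiquitinating enzymes.

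Positions are given on GRCm39, as in the deposited gene table, and all 8 genes are protein coding. Zscan4c lies at chr7:10739672-10744474 on the plus strand, Zscan4d at chr7:10895301-10900086 on the minus strand and Zscan4f at chr7:11131842-11136245 on the plus strand. Usp17lc, at chr7:103064279-103069087, and Usp17la, at chr7:104506216-104511874, lie further along the same chromosome, both on the plus strand. Tcstv3 lies at chr13:120778414-120779714 on the plus strand, Tmem92 at chr11:94668043-94673529 on the minus strand and Zfp352 at chr4:90107057-90113939 on the plus strand.

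Shared sequence decides what a count of one family member means, so the coding sequences of the 3 Zscan4 genes were aligned first. Zscan4c and Zscan4f were identical at 1512 of 1518 coding bases (99.6%), and each was identical to Zscan4d at 1483 of 1518 (97.7%). Over all 3 genes 38 of the 1518 coding positions differed, and 9 of these fell in the stretch of 120 bases from coding position 646 to 765, which lies in a single coding exon. It is shown to make visible which reads can be assigned, with the differing bases in capitals. The stretch covers chr7:10743048-10743167 in Zscan4c, chr7:10896604-10896723 in Zscan4d and chr7:11135241-11135360 in Zscan4f.
Zscan4c: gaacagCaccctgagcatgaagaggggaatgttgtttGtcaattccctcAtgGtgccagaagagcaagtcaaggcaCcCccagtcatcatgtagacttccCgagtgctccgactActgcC
Zscan4d: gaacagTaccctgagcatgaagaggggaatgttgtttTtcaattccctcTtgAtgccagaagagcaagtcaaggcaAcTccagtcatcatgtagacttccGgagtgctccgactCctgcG
Zscan4f: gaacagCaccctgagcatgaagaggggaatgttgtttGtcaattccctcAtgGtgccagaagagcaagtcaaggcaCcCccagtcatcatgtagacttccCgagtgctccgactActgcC
Zscan4c and Zscan4f were identical over the whole stretch, and Zscan4d differed from both at every base in capitals. Usp17la and Usp17lc were less alike, with 90.6% identity of their coding sequences, while the paralogue Usp17ld was 98.4% identical to Usp17lc.

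The sequence just upstream of the starts is shown for the 3 Zscan4 genes, because these near-identical copies hold most of the reads of the 8 genes in WT EpiLCs. Windows of 250 bases before the annotated start were read from GRCm39, at chr7:10739422-10739671 for Zscan4c, chr7:10900087-10900336 for Zscan4d (minus strand) and chr7:11131592-11131841 for Zscan4f. Capitals mark TGATTCAA, the core of the binding motif known for Dux, and TATAAA, the core of a TATA box.
Zscan4c: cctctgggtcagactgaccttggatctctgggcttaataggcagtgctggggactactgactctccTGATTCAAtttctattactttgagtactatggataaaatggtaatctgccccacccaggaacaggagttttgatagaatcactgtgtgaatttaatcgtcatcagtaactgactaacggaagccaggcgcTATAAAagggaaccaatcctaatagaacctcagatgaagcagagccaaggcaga
Zscan4d: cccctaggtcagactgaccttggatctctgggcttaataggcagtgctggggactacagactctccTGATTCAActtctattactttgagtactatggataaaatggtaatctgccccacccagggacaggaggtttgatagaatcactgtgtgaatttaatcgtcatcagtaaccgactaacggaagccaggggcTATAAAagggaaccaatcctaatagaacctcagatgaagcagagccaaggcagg
Zscan4f: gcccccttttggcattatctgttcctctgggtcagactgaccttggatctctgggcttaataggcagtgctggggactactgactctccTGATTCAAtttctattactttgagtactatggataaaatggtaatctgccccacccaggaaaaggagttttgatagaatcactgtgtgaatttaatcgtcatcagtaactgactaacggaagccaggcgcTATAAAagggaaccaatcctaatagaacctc
The windows of Zscan4c and Zscan4d were 96.4% identical, and that of Zscan4f was 82.8% identical to Zscan4c and 79.9% identical to Zscan4d, its annotated start being nearer to the TATA box. TGATTCAA stood 184 bases upstream of the start in Zscan4c and Zscan4d and 161 bases upstream in Zscan4f. Searched on both strands, it was in the windows of 353 of 56689 genes (0.623%). TATAAA was in the windows of Zscan4c, Zscan4d, Zscan4f and Usp17lc, and in 15.7% of all windows. In a later annotation the starts of Zscan4c and Zscan4d lie 24 and 25 bases further upstream, which puts TATAAA at 30 and 29 bases from them, beside 31 bases in Zscan4f. The words TGATTCAA and TATAAA were chosen after the windows had been seen. A match is a run of letters only, and binding was not measured here.

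The start of Zfp352 lies inside a long terminal repeat of the MT2B1 family, relatives of the MT2 repeats that flank MERVL. A start inside an MT2 or MERVL copy on the same strand was found for 281 of all 56748 genes (0.495%). The 250 bases before the start of Zfp352, at chr4:90106807-90107056, are shown with the repeat in capitals.
Zfp352: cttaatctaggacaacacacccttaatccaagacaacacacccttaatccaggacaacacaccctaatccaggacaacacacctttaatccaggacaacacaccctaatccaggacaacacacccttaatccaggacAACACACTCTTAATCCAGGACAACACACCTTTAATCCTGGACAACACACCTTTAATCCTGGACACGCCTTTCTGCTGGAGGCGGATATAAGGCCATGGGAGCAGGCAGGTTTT
The repeat copy covers chr4:90106944-90107310 and held 23 uniquely mapped reads over the 40 libraries, 18 of them in WT EpiLCs. It overlaps the gene itself, so these reads are not a separate measurement. An MT2_Mm copy inside Usp17lc, at chr7:103064760-103065246, held 40 reads with 33 in WT EpiLCs. The only MERVL-int copy within 5000 bases of any of the 8 genes lay upstream of Zscan4d on the opposite strand, at chr7:10904367-10909688, and held 197 reads, 124 of them in WT EpiLCs.

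The libraries held 22.6 M to 48.9 M uniquely mapped reads on genes. WT replicates 1 to 4 (25.4 M to 33.5 M) had depths like TKO and QKO libraries (22.6 M to 33.6 M), and WT replicates 5 to 8 (39.4 M to 48.9 M) had depths like LBRKO libraries (39.7 M to 48.1 M). The labels name no batch. Values against each set of WT libraries are given for the results that they change most. Lmnb1 was at 481 to 547 CPM (counts-per-million, with library sizes scaled by trimmed mean of M values, TMM) in WT libraries and at 0.535 to 15.5 in TKO and QKO libraries. Lbr was at 347 to 513 CPM in WT libraries, 145 to 403 in LBRKO and 236 to 291 in QKO libraries, so that LBRKO and WT libraries overlapped in its RNA. A frameshift need not remove the transcript. The summed level of 6 naive pluripotency genes was 3430 to 4855 CPM in mES libraries and 104 to 295 in EpiLC libraries. Within EpiLCs, LBRKO libraries (195 to 295) lay above all WT libraries (104 to 173) in this sum. The summed level of 4 primed pluripotency genes was 130 to 211 CPM in mES libraries and 2205 to 3840 in EpiLC libraries. In EpiLCs the primed sum was 3150 to 3840 in WT, with all LBRKO (2523 to 2859) and QKO libraries (2205 to 2318) below. The part of these differences in the EpiLC values of the 8 genes was not tested. Primitive endoderm genes summed to 2.98 to 14.5 CPM, trophectoderm genes to 10.9 to 71.3 and fibroblast genes to 2.33 to 13.7. LBRKO mES cells had the highest trophectoderm sum (66.8 to 71.3), and the part of these cells in the values below was not tested.

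All 8 genes were scarce in naive cells and were higher in WT EpiLCs. Summed over the 8 genes, a WT mES library held 8 to 91 unique reads and a WT EpiLC library 368 to 577. Zscan4d led the group in WT EpiLCs and Zfp352 was lowest of the 8 per base of exon. In RPKM, which is CPM divided by the exon length in kilobases (mean ± SD, n = 8 WT EpiLC libraries), Zscan4d was at 1.59 ± 0.327, Zscan4c at 1.22 ± 0.159 and Zscan4f at 0.991 ± 0.190. Tmem92 stood at 0.723 ± 0.240 RPKM, Tcstv3 at 0.626 ± 0.290, Usp17lc at 0.590 ± 0.127, Usp17la at 0.461 ± 0.128 and Zfp352 at 0.241 ± 0.0745. The spreads of Tmem92, Tcstv3 and Usp17lc overlapped, while Zfp352 was separated from Zscan4c and Zscan4d by more than their spread. Over the 8 groups, WT EpiLCs had the highest mean CPM for all 8 genes. For 7 of them no library of the next group reached a WT EpiLC library, and the exception was Tcstv3, whose WT mES libraries overlapped it. The share of all genes with such a gap was not counted. Most neighbours further down the order overlapped.

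**Figure D1:**
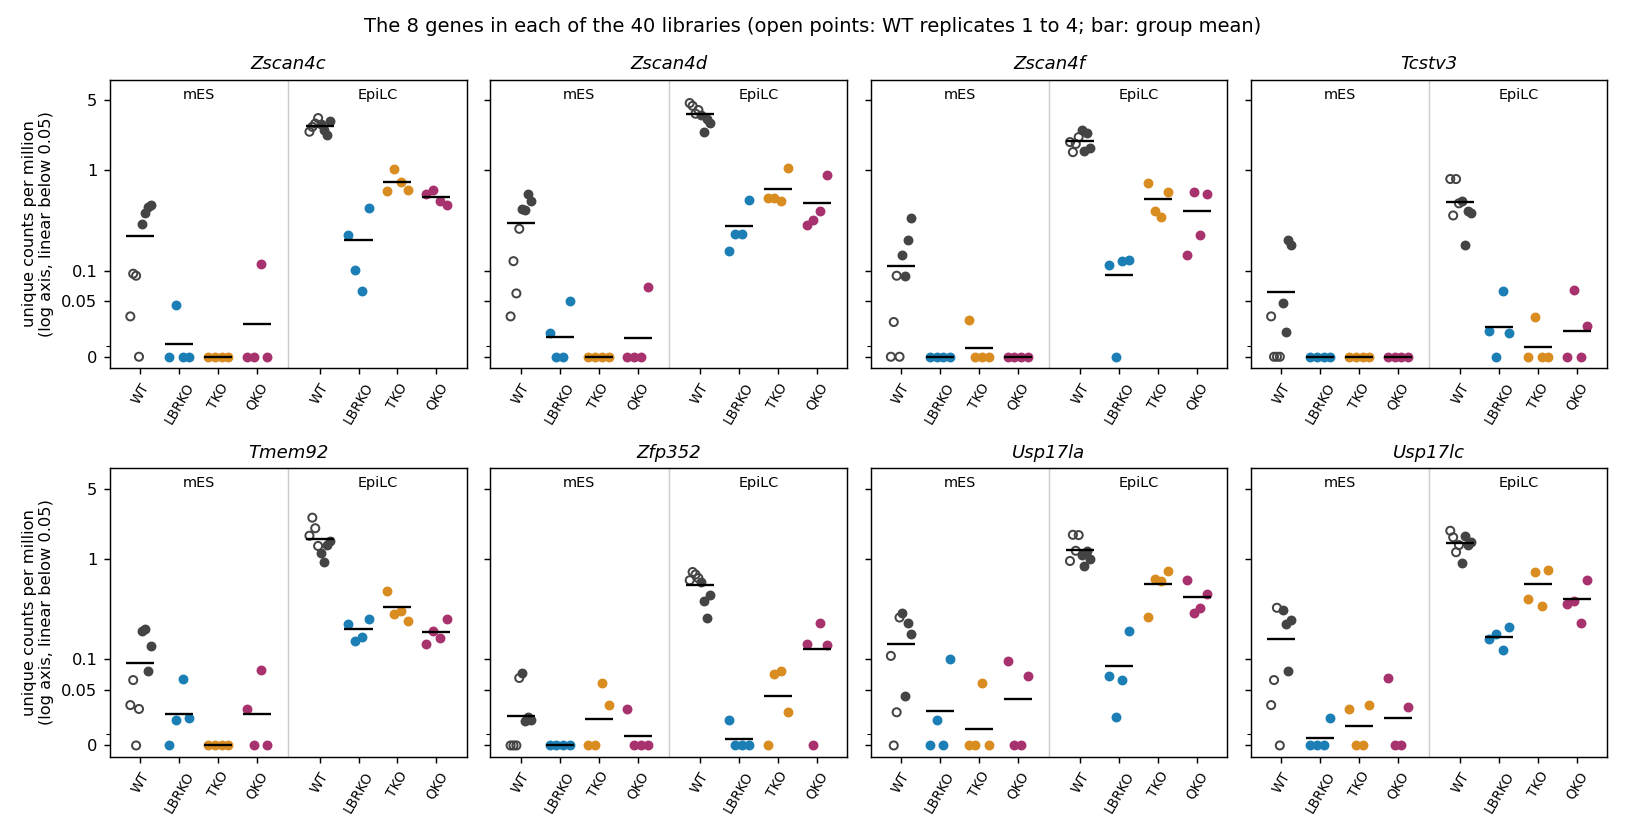
Unique CPM (y axis, logarithmic, linear below 0.05) of the 8 genes in each of the 40 libraries by genotype and stage; points are libraries, open points WT replicates 1 to 4, and bars group means. The 8 WT EpiLC libraries stand above all 12 mutant EpiLC libraries for each gene (share of all genes not counted), and most mutant mES libraries lie at 0.

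On passage from naive cells to EpiLCs, WT cells raised all 8 genes. The unique counts of Zscan4c in WT mES replicates 1 to 8 were 1, 3, 3, 0, 12, 17, 17 and 20, with a lowest level of 0, a median of 0.192 and a highest of 0.452 CPM. WT EpiLCs held 71 to 143 reads of Zscan4c per library, with 2.25 CPM in the lowest, a median of 2.79 and 3.32 in the highest library. Every WT EpiLC library stood above every WT mES library, and WT mES replicates 1 to 4 stood below replicates 5 to 8. The log2 fold change of Zscan4c between the stages was 3.53 ± 0.37 (SE, adjusted p = 6.7e-11, edgeR's quasi-likelihood test with Benjamini-Hochberg adjustment over all 23399 genes tested). Zscan4d counts in WT mES replicates 1 to 8 were 1, 4, 2, 8, 17, 18, 23 and 22, and in WT EpiLCs Zscan4d ranged from 2.43 to 4.68 CPM with a median of 3.63. It rose by 3.53 ± 0.33 on the log2 scale. Zscan4f had 0, 1, 3, 0, 6, 4, 8 and 15 reads in WT mES libraries and 1.52 to 2.52 CPM (median 1.87) in WT EpiLCs, a rise of 3.96 ± 0.40. For all 3 Zscan4 genes, naive replicates 5 to 8 lay above replicates 1 to 4.

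Tmem92 rose by 3.95 ± 0.35, from 0 to 9 reads per WT mES library to 0.944 to 2.59 CPM (42 to 80 reads) in WT EpiLCs. Zfp352, which had at most 3 reads in a WT mES library (8 in all), rose by 4.16 ± 0.51 to 0.26 to 0.743 CPM. The 2 deubiquitinase genes had similar estimates, 3.08 ± 0.35 for Usp17lc and 3.04 ± 0.41 for Usp17la, and their WT EpiLC libraries lay at 0.916 to 1.91 and 0.854 to 1.75 CPM. Tcstv3 had the smallest estimate, 2.80 ± 0.53, with 1, 0, 0, 0, 2, 1, 8 and 8 reads in WT mES libraries and 0.18 to 0.821 CPM in WT EpiLCs. It was the only one of the 8 whose stages overlapped. A gene counted as changed when its adjusted p was under 0.05 and its fold over 2. By this rule 8 of 8 rose in WT cells, where 18.2% of all tested genes did, and their median log2 fold change was 3.53 beside 0.07 over all tested genes. The 8 genes passed the filter on low counts through WT EpiLCs, so a rise was favoured in advance.

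The size of the WT rise depended on the set of WT libraries. Summed over libraries, Zscan4c was 50.7-fold higher in WT EpiLCs than in WT mES cells among replicates 1 to 4 (7 naive reads, 95% counting interval 24.3 to 127) and 6.91-fold higher among replicates 5 to 8 (5.33 to 9.08). The naive libraries made this difference. WT mES replicates 5 to 8 held 6.88-fold more Zscan4c than replicates 1 to 4 (3.16 to 17.8), 3.89-fold more Zscan4d (2.22 to 7.28), 6.02-fold more Zscan4f (2.14 to 23.4) and 4.74-fold more Tmem92 (1.65 to 18.7). For these 4 genes the libraries of the 2 sets did not overlap, and the share of all genes of which this holds was not counted. For Zscan4f the gap was as narrow as 0.0892 CPM (3 reads) against 0.0894 CPM (4 reads). In EpiLCs the sets differed less. Replicates 5 to 8 were 1.06-fold lower in Zscan4c (0.924 to 1.23) and 1.38-fold lower in Zscan4d (1.22 to 1.56), for which the sets again did not overlap. Dppa2, the factor upstream of Dux, was at 21.0 CPM in WT mES replicates 1 to 4 and 37.4 in replicates 5 to 8 (pooled over libraries). Counting intervals cover counting error only.

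In naive cells, each mutant held fewer reads of most of these genes than WT, at counts too low for a precise fold. Zscan4c had 73 reads in the 8 WT mES libraries, and 0, 2, 0 and 0 in LBRKO, 0, 0, 0 and 0 in TKO and 0, 0, 3 and 0 in QKO replicates 1 to 4. Zscan4d had 95 reads in WT, and 1, 0, 0 and 2 in LBRKO, none in TKO and 0, 0, 0 and 2 in QKO libraries. Zscan4f had 37 reads in WT, 1 in all TKO libraries and none in LBRKO or QKO libraries. Single WT libraries were also at or near 0 for each of the 3 genes, so that the genotypes overlapped, except that TKO had no read of Zscan4d and every WT library had at least 1. Summed over libraries and scaled, Zscan4c was 22.1-fold lower in LBRKO (95% counting interval 5.89 to 186), at least 9.91-fold lower in TKO and 9.24-fold lower in QKO (3.04 to 45.8). Where a group had no read, the bound was taken against a floor of 3 reads over the group. Against WT replicates 1 to 4 (7 reads) Zscan4c was 5.01-fold lower in LBRKO (0.955 to 49.5), at least 2.25-fold in TKO and 2.10-fold in QKO (0.479 to 12.6), so that the intervals of LBRKO and QKO reached 1. Against replicates 5 to 8 (66 reads) it was 34.5-fold, at least 15.5-fold and 14.4-fold lower. Zscan4d was 19.1-fold lower in LBRKO (6.35 to 94.5), at least 12.9-fold lower in TKO and 18.0-fold lower in QKO (4.86 to 151). Against WT replicates 1 to 4 alone Zscan4d was still 7.16-fold lower in LBRKO (2.03 to 38.6), at least 4.83-fold in TKO and 6.75-fold in QKO (1.57 to 60.8).

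Of the other genes, Tcstv3 had 20 reads in WT mES libraries and none in any of the 12 mutant mES libraries, which puts it at least 4.03-fold lower in LBRKO, 2.72-fold in TKO and 2.53-fold in QKO. Of these 20 reads 19 were in WT replicates 5 to 8, and against replicates 1 to 4 no fold of Tcstv3 can be given. Usp17lc had 51 reads in WT and 1, 2 and 3 in LBRKO, TKO and QKO. Usp17la had 43 reads in WT and 5, 2 and 5 in the same mutants. Both deubiquitinase genes were thus nearly absent from mutant naive cells, though single WT libraries (replicate 4 for Usp17lc and replicate 2 for Usp17la) held none either. Tmem92 had 30 reads in WT, 5 in LBRKO, none in TKO and 3 in QKO. Zfp352 had 8 reads in WT, 3 in TKO, 1 in QKO and none in LBRKO, too few to detect a difference at this depth.

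By edgeR's quasi-likelihood test with Benjamini-Hochberg adjustment, 6 of the 8 genes were lower in LBRKO mES cells (all but Zfp352, adjusted p = 0.055, and Tmem92, 0.052), where 3.25% of all tested genes were lower. In TKO mES cells 7 of 8 were lower (all but Zfp352, adjusted p = 0.96), beside 3.77% of all genes. In QKO mES cells 5 of 8 were lower (the 3 Zscan4 genes, Usp17lc and Tcstv3), beside 6.66% of all genes. None was higher in LBRKO (3.06% of all genes were), TKO (2.68%) or QKO (10.6%), also at an unadjusted p under 0.05 or by DESeq2. The 8 genes passed the filter on low counts through WT EpiLCs, where they are high. In fits to the compared groups only, 2, 1 and 1 of the 8 passed the filter in LBRKO, TKO and QKO mES cells, and these 2, 1 and 1 were lower. Most calls rested on WT mES replicates 5 to 8. With WT replicates 1 to 4 alone, 2 genes were lower in LBRKO (Zscan4d and Usp17lc), 1 in TKO and 1 in QKO (Zscan4d in both). With WT replicates 5 to 8 alone, 6 genes passed the filter on low counts and all 6 were lower in each mutant.

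The effect of added Lbr disruption in TKO mES cells could not be measured, as none of the 8 genes passed the filter in a fit to QKO and TKO mES cells alone. In the model of all libraries none was higher or lower in QKO than in TKO mES cells (4.09% and 2.12% of all tested genes were), 1 was higher at an unadjusted p under 0.05 (Tmem92, 3 reads against none), and DESeq2 called 0. These libraries held at most 5 reads of a gene over a group, so no interval narrower than several-fold can be given. For Usp17la the ratio was 2.68, higher in QKO, with a counting interval of 0.439 to 28.2.

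In EpiLCs the loss was measured on far more reads. For all 8 genes, each of the 12 mutant libraries stood below each of the 8 WT libraries. How many of all tested genes separate in this way was not counted. LBRKO EpiLCs had the lowest mean of Zscan4c, Zscan4d, Zscan4f, Zfp352, Usp17la and Usp17lc among the EpiLC groups. The summed level of the 8 genes was 10.5 to 15.7 CPM in WT, 0.690 to 1.75 in LBRKO, 2.94 to 4.12 in TKO and 2.06 to 3.42 in QKO EpiLC libraries. LBRKO was below TKO in every library on this sum, a comparison that was not tested.

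Zscan4c was at 0.227, 0.102, 0.0627 and 0.426 CPM in LBRKO EpiLC replicates 1 to 4, at 0.618, 1.03, 0.765 and 0.636 in TKO and at 0.576, 0.64, 0.491 and 0.448 in QKO. The lowest WT EpiLC library, at 2.25 CPM, was above all of these. Zscan4c fell by 3.72 ± 0.49 on the log2 scale in LBRKO (adjusted p = 1.9e-07, edgeR), by 1.85 ± 0.43 in TKO (0.0022) and by 2.36 ± 0.45 in QKO (2.7e-05). Zscan4d was at 0.159, 0.23, 0.23 and 0.511 CPM in LBRKO, at 0.53, 0.533, 0.497 and 1.06 in TKO and at 0.288, 0.32, 0.393 and 0.897 in QKO. In both TKO and QKO the fourth replicate was highest, and it was still under the lowest WT library (2.43 CPM). Zscan4d fell by 3.65 ± 0.44, 2.44 ± 0.41 and 2.90 ± 0.43 in LBRKO, TKO and QKO. Zscan4f was at 0.114, 0, 0.125 and 0.128 CPM in LBRKO, at 0.75, 0.391, 0.344 and 0.606 in TKO and at 0.144, 0.608, 0.229 and 0.588 in QKO, against at least 1.52 in WT. It fell by 4.32 ± 0.54, 1.89 ± 0.45 and 2.28 ± 0.46. The means of these 3 genes were thus lowest in LBRKO, with TKO and QKO overlapping each other. For Zscan4d, LBRKO replicate 4 (0.511 CPM) also overlapped TKO and QKO. LBRKO was not tested against the other mutants.

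Tmem92 was at 0.227, 0.153, 0.167 and 0.256 CPM in LBRKO, at 0.485, 0.284, 0.306 and 0.242 in TKO and at 0.144, 0.192, 0.164 and 0.252 in QKO. Its 3 mutants overlapped. It fell by 2.94 ± 0.42 in LBRKO, 2.27 ± 0.41 in TKO and 3.03 ± 0.44 in QKO. Zfp352 had 1 read in all LBRKO EpiLC libraries, 5 in TKO and 16 in QKO, against 154 in WT. It was the only one of the 8 with its highest mutant level in QKO, and it fell by 3.48 ± 0.66 in TKO and 2.05 ± 0.54 in QKO. In LBRKO the ratio of Zfp352 was 92.4, with a counting interval of 16.3 to 3674. Tcstv3 had 5, 1 and 3 reads in LBRKO, TKO and QKO EpiLCs against 135 in WT, and was 16.2-fold (6.77 to 50.7), 50.1-fold (8.83 to 1992) and 19.0-fold lower (6.37 to 93.3). It had its lowest unique count in TKO, but multimapped reads of Tcstv3 numbered 6, 7 and 3 in LBRKO, TKO and QKO, so neither table separates the mutants and the fold in TKO holds for unique reads only.

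The deubiquitinase genes fell least in TKO. Usp17la was at 0.0681, 0.0255, 0.0627 and 0.192 CPM in LBRKO EpiLCs, at 0.265, 0.639, 0.612 and 0.757 in TKO and at 0.612, 0.288, 0.327 and 0.448 in QKO. All TKO libraries lay above all LBRKO libraries. Usp17la fell by 3.73 ± 0.57 in LBRKO and by 1.54 ± 0.48 in QKO, and its estimate in TKO, -1.08 ± 0.46 on the log2 scale (adjusted p = 0.12, edgeR), did not pass. Usp17lc was at 0.159, 0.179, 0.125 and 0.213 CPM in LBRKO, at 0.397, 0.746, 0.344 and 0.787 in TKO and at 0.36, 0.384, 0.229 and 0.616 in QKO. It fell by 3.07 ± 0.45, 1.32 ± 0.40 (adjusted p = 0.019) and 1.84 ± 0.41.

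In all, 8 of 8 genes were lower in LBRKO EpiLCs (2.63% of all tested genes), 7 of 8 in TKO (1.48%) and 8 of 8 in QKO (8.16%). None was higher (3.04%, 1.44% and 13% of all genes were), also at an unadjusted p under 0.05 or by DESeq2. As the 8 genes passed the filter on low counts through WT EpiLCs, a lower value in mutant EpiLCs was favoured in advance. The median log2 fold change of the 8 was -3.73, -2.08 and -2.32 in LBRKO, TKO and QKO, beside medians of all tested genes within 0.04 of 0. Either WT set alone gave similar counts, 8, 7 and 8 for replicates 1 to 4, and 6, 5 and 6 of the 6 genes tested for replicates 5 to 8. None was higher or lower in QKO than in TKO EpiLCs (9.97% and 5.29% of all genes were), with 0 at an unadjusted p under 0.05 and 0 by DESeq2. Zscan4c was 1.43-fold lower in QKO than in TKO (counting interval 1.02 to 2.00), Zscan4d 1.38-fold (0.971 to 1.96) and Usp17lc 1.45-fold (0.991 to 2.14). For Zscan4d and Usp17lc a further loss of about that size cannot be told from no difference. The interval of Zscan4c lay just above 1, but it covers counting error only, and Zscan4c did not pass edgeR's test. Dux (Duxf3 in the annotation) had too few reads to be tested, with 33, 21, 20 and 9 in WT, LBRKO, TKO and QKO EpiLCs. Duxf3 was 1.06-fold higher in LBRKO than in WT EpiLCs with a counting interval that reached from 0.583 to 1.89, 1.63-fold higher in TKO (0.889 to 2.93) and 1.55-fold lower in QKO (0.725 to 3.68), and its libraries overlapped WT in all 3 mutants. With each WT set the direction in LBRKO turned, 1.34-fold lower against replicates 1 to 4 (0.683 to 2.63) and 1.49-fold higher against replicates 5 to 8 (0.722 to 3.17).

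**Figure D2:**
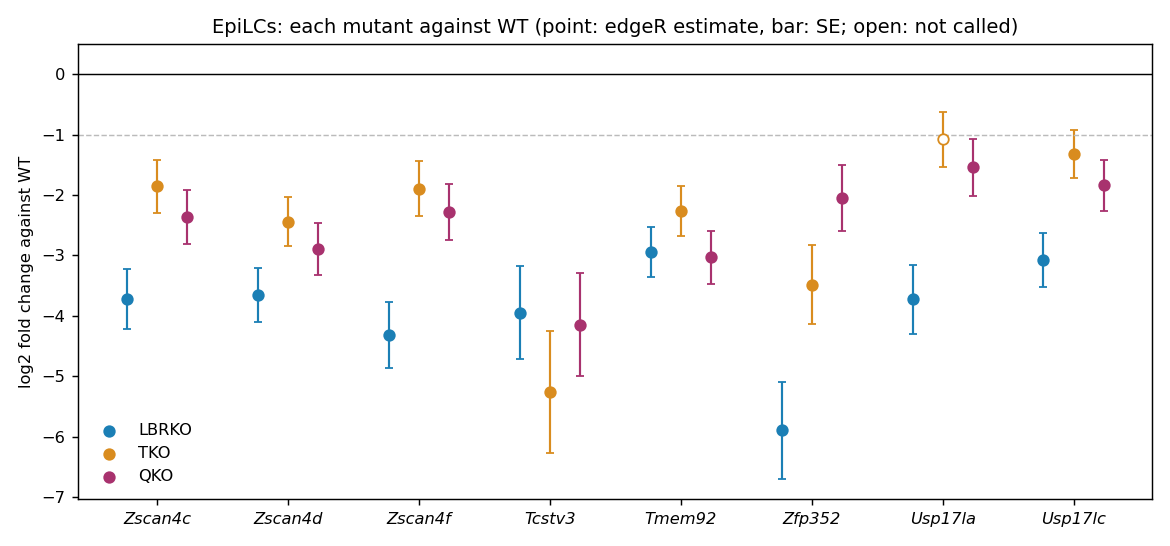
Log2 fold change (y axis) of each of the 8 genes in LBRKO, TKO and QKO EpiLCs against WT EpiLCs; points are edgeR estimates, bars standard errors, open points not called, and the dashed line a 2-fold loss. All 24 estimates lie below 0, and those of Zfp352 in LBRKO and TKO and of Tcstv3 in all 3 mutants rest on 5 reads or fewer in the mutant and depend on the prior count of the fit.

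The genes still rose on passage to EpiLCs in mutants. In LBRKO cells 5 of 8 rose (15.3% of all tested genes did): Zscan4c, Zscan4d, Zscan4f, Tmem92 and Usp17lc. In TKO cells 6 of 8 rose (17.2%), all but Tcstv3 and Zfp352, and in QKO cells 7 of 8 (17.7%), all but Tcstv3. Here too the genes passed the filter through WT EpiLCs. Fitted to the compared groups only, 2 of the 8 were tested in TKO and 1 in QKO, all of which rose, and no gene was tested in LBRKO. Zscan4c went from 2 to 37 reads in LBRKO, 18.5-fold (4.76 to 158), from 0 to 84 in TKO, at least 30.4-fold, and from 3 to 67 in QKO, 19.9-fold (6.51 to 98.8). The WT ratio was 11.1-fold (8.72 to 14.3). None of the 8 rose significantly more or less in a mutant than in WT in a test of the difference, in LBRKO (3.12% of genes higher and 2.88% lower), TKO (1.88% and 1.15%) or QKO (6.94% and 5.69%). At an unadjusted p under 0.05, 0 passed in LBRKO and QKO, and in TKO 3 were higher and 1 lower, and DESeq2 called 0, 1 (Zscan4c, higher) and 0. With WT replicates 1 to 4 alone, Tmem92 rose less in LBRKO than in WT (log2 difference -3.05, adjusted p = 0.034), and with replicates 5 to 8 alone 3 genes rose more in TKO (Zscan4c, Zscan4d and Tmem92). On a ratio scale the genes thus started lower and ended lower in mutants, and with naive counts near 0 the test had little precision.

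Counting multimapped reads changed the levels of the genes with near-identical copies and left the others as they were. Over the 8 WT EpiLC libraries the multimapped table held 886 reads of Zscan4f against 580 unique ones, a ratio of 1.53 (1.05 to 2.09 over libraries). Zscan4c had 1100 against 818, a ratio of 1.34 (1.25 to 1.55), and Zscan4d 1103 against 1042, a ratio of 1.06. Zscan4d, the highest of the 3 by unique reads, was thus level with Zscan4c by multimapped reads. Read length is 150 bases in the methods of the study and 100 in its reporting summary, so stretches of both lengths were searched. Of all stretches of 100 bases in the exons, 6.75% occurred only once in GRCm39 for Zscan4f, 28.8% for Zscan4c and 72.5% for Zscan4d. With stretches of 150 bases the shares of Zscan4f, Zscan4c and Zscan4d were 8%, 42.8% and 89.6%. Usp17lc had 68.2% of its stretches once in the genome and a ratio of 1.21 (1.09 to 1.34). Tmem92 (93.5%), Usp17la (93.5%) and Zfp352 (99.3%) had ratios of 1.04, 1.00 and 1.00. Tcstv3 stood out from this order, with 91.2% of its stretches of 100 bases and 100% of those of 150 bases found once, and a ratio of 1.28 (0.958 to 1.91). Over all 25969 genes with at least 100 unique reads, the ratio had a median of 1.00 and a 5th to 95th percentile range of 0.993 to 3.87.

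**Figure D3:**
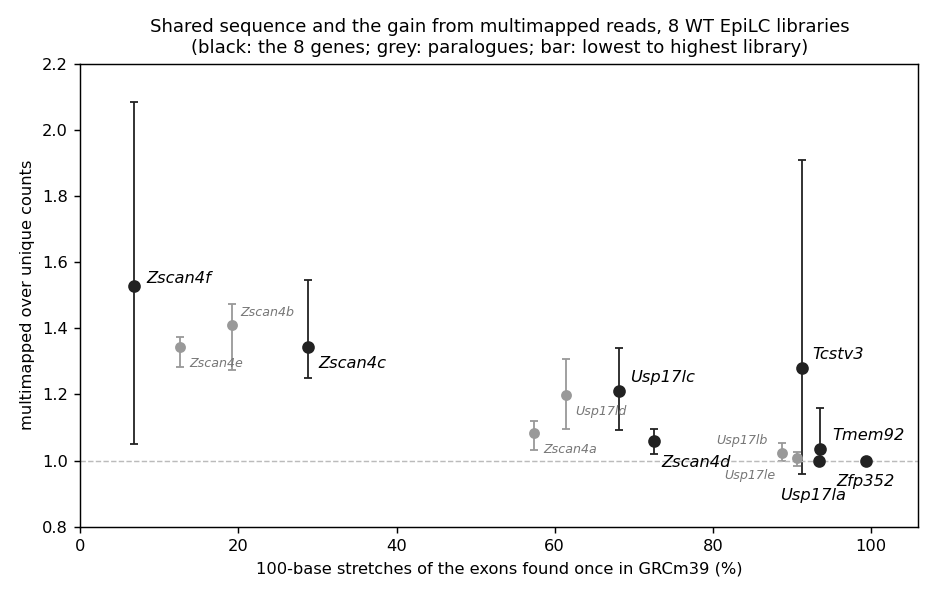
Ratio of multimapped to unique counts over the 8 WT EpiLC libraries (y axis) against the percentage of 100-base exon stretches found once in GRCm39 (x axis) for the 8 genes (black) and their paralogues (grey); bars run from the lowest to the highest library. Zscan4f, with 6.75% of its stretches found once, has a ratio of 1.53, and Usp17la and Zfp352 lie at 1.00.

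Within families, the choice of table moved the shares of members. The 10 Zscan4 genes and pseudogenes held 6099 unique and 7868 multimapped reads in WT EpiLCs. Zscan4d took 17.1% of the unique reads and 14.0% of the multimapped ones, Zscan4c 13.4% and 14.0%, and Zscan4f 9.51% and 11.3%. The pseudogene Zscan4-ps2 moved further, from 9.18% to 13.9%. Usp17le held 43.4% of the 2382 unique reads of the 6 Usp17l genes, ahead of Usp17lc (17.9%) and Usp17la (14.9%), and multimapped shares were close (41.4%, 20.5% and 14.1%). Among 13 Tcstv genes Tcstv2b held 60.5% of 1305 unique and 49.0% of 1583 multimapped reads, while Tcstv3 had 10.3% and 10.9%.

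The calls hardly depended on the table. With multimapped counts, the counts of the 8 genes lower than WT were 6, 7 and 5 in LBRKO, TKO and QKO mES cells (3.55%, 3.92% and 7.36% of the 25366 genes tested there) and 8, 7 and 8 in EpiLCs (2.54%, 1.34% and 7.92%). In WT cells 8 rose (17.1%). The exception was the passage of TKO cells, where 7 rose with multimapped reads (17.4%) and Tcstv3 was added.

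Most of the tested paralogues of the 8 genes also rose in WT EpiLCs and were lower in mutant EpiLCs. Of 23 listed genes and pseudogenes, from the Zscan4, Usp17l and Tcstv families and Zfp353-ps, 13 passed the filter. These paralogues, too, were high in WT EpiLCs, which favoured their passing. A rise there and a lower value in mutant EpiLCs than in WT EpiLCs were thus both partly fixed in advance. The shares of all tested genes do not correct for this. All 13 rose in WT cells on passage (18.2% of all tested genes did), with a median log2 fold change of 4.03. Among those not tested, Zscan4-ps4 went the other way, with 41 unique reads in WT mES cells and 3 in WT EpiLCs. In EpiLCs 13 were lower in LBRKO (2.63% of all tested genes), 9 in TKO (1.48%) and 12 in QKO (8.16%), with medians of -4.17, -1.97 and -3.06. In TKO the 4 that did not pass included Tcstv1b, with an estimate of 0.25. In mES cells 9, 8 and 8 were lower, beside 3.25%, 3.77% and 6.66% of all tested genes. With WT replicates 1 to 4 alone, 10 were tested and 5, 4 and 2 were lower. With WT replicates 5 to 8 alone, 12 were tested and 10, 9 and 10 were lower. Zscan4e, 99.7% identical to Zscan4b in its coding sequence, fell by 3.82 in LBRKO, 1.97 in TKO and 3.20 in QKO EpiLCs on the log2 scale. Of the 13 paralogues, 4 were lower in QKO than in TKO EpiLCs (5.29% of all genes were, and 3 paralogues with multimapped reads): Zscan4e (-1.23, adjusted p = 0.037, edgeR), Zscan4-ps1 (-1.90), Tcstv2b (-2.01) and Usp17ld (-2.44). The median of the 13 was -0.95 beside -0.46 for the 8 genes, and the difference was not tested. Near-identical paralogues share reads, so these are not independent of each other.

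Other genes of the 2-cell state divided. Of 78 listed, 57 were in the table and 23 were tested. In WT cells 11 rose on passage (18.2% of all tested genes did) and 5 fell (3007 of 23399 genes did). With WT replicates 1 to 4 alone, 11 of 20 tested rose and 5 fell. With replicates 5 to 8 alone, 4 of 22 rose and 6 fell, beside 4076 and 2888 of all 23625 genes. Among those that rose, Eif1ad16, of a family of genes related to a translation initiation factor, was at 4.42 and Eif1ad11 at 3.64 on the log2 scale. The PRAME family genes Pramel6 and Pramel7, expressed in the inner cell mass and naive cells, fell by 10.12 and 6.46, and Obox6 by 9.85. In EpiLCs 10 of 23 were lower in LBRKO, 7 in TKO and 11 in QKO, where 2.63%, 1.48% and 8.16% of all genes were. Higher were 1, 2 and 3, beside 3.04%, 1.44% and 13% of all genes, so that the 3 in QKO are near the share of all genes. The genes lower in all 3 included Eif1ad10, Eif1ad15, Eif1ad16, Eif1ad19, Eif1ad7 and Eif1ad8. In naive cells the direction was mixed, with 12 lower and 3 higher in LBRKO (3.25% and 3.06% of all genes), 5 and 4 in TKO (3.77% and 2.68%) and 2 and 6 in QKO (6.66% and 10.6%), where Pramel7 was higher by 2.94 and C130073F10Rik by 3.58. These naive counts, too, changed with the WT set. With WT replicates 1 to 4 alone, 20 were tested. In LBRKO, TKO and QKO 4, 2 and 0 were lower (1252, 699 and 1517 of all 22795 genes) and 3, 4 and 7 higher (1304, 595 and 2677). With replicates 5 to 8 alone, 22 were tested. Here 10, 8 and 2 were lower (629, 1102 and 1532 of all 23625 genes) and 3, 4 and 6 higher (593, 989 and 2377).

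Known regulators mostly stayed within 2-fold between genotypes. Of 6 activators, Dppa2 and Dppa4 rose in WT cells on passage, by 1.92 ± 0.13 and 1.33 ± 0.08 on the log2 scale (18.2% of all tested genes rose). Against WT their estimates stayed under 2-fold in each mutant at both stages. At an adjusted p under 0.05 by edgeR, Dppa2 was lower in TKO mES cells (-0.62 ± 0.16) and Dppa4 in TKO EpiLCs (-0.37 ± 0.10) and QKO mES cells (-0.27 ± 0.10). Other activators also shifted at this threshold, all under 2-fold. Among them were Atr in QKO EpiLCs (-0.51 ± 0.07) and Nelfa in QKO mES cells (-0.34 ± 0.05). Trp53 was higher in QKO EpiLCs (0.50 ± 0.09) and LBRKO EpiLCs (0.40 ± 0.09). Of 24 repressors, Lin28a, an RNA-binding protein, was the only one to pass in these comparisons. It was higher in WT EpiLCs than in WT mES cells (1.93 ± 0.10, beside 18.2% of all genes higher). It was lower in QKO than in WT mES cells (-1.25 ± 0.13, beside 6.66% of all genes lower). In the difference of passage from WT, 1 repressor was lower in QKO, where 5.69% of all genes were. Lin28a itself differed between the WT sets, at 124 to 133 CPM in WT mES replicates 1 to 4 and 210.3 to 253 in replicates 5 to 8, and with replicates 1 to 4 alone it was not lower in QKO mES cells by both thresholds.

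MERVL, the retrovirus of this state, was read from the multimapped table by family. The internal part MERVL-int was at 45.4 to 101 CPM in WT mES libraries (median 60.9) and at 137 to 230 (median 192) in WT EpiLCs. LBRKO EpiLCs held 65.2 to 124 CPM, TKO 91.0 to 103 and QKO 140 to 156. WT EpiLCs were thus above every LBRKO and TKO library, while QKO overlapped WT. The overlap came from WT replicates 5 to 8 (137 to 189), and all QKO libraries lay below WT replicates 1 to 4 (194 to 230 CPM). MERVL-int rose by 1.53 ± 0.13 on passage in WT cells (27 of 1142 families, 2.36%, did). It fell by 1.09 ± 0.17 in LBRKO EpiLCs (0.263% of families were lower), its estimate was -0.93 ± 0.17 in TKO (adjusted p = 9.1e-05, under 2-fold) and -0.33 ± 0.16 in QKO (0.075). The side of the 2-fold threshold depended on the WT set. With WT replicates 1 to 4 alone MERVL-int rose by 2.01 on WT passage and fell by 1.26, 1.12 and 0.48 in LBRKO, TKO and QKO EpiLCs. With replicates 5 to 8 alone the rise was 0.98 and the falls 0.85, 0.72 and 0.09, all under 2-fold. In QKO mES cells its estimate was 0.79 ± 0.16, under 2-fold, where 25.1% of families were higher. Against WT replicates 1 to 4 alone this estimate was 1.17, past 2-fold, and against replicates 5 to 8 alone 0.51. MERVL-int rose less on passage in each mutant than in WT, with log2 differences of -1.16 ± 0.23 in LBRKO, -1.01 ± 0.23 in TKO and -1.12 ± 0.23 in QKO (0.263%, 1.23% and 1.49% of families were lower). This too depended on the WT set, with -1.69, -1.57 and -1.65 against WT replicates 1 to 4, and -0.65, -0.52 and -0.60 (adjusted p = 0.058, 0.15 and 0.048), all under 2-fold, against replicates 5 to 8. MT2_Mm, the repeat that flanks MERVL, was at 48.6 ± 6.95 CPM in WT mES cells and 86.0 ± 15.4 in WT EpiLCs (SD, n = 8). Its estimates were 0.82 on WT passage and -0.77, -0.52 and -0.04 in LBRKO, TKO and QKO EpiLCs, all under 2-fold. Related families differed from MERVL-int. On WT passage MT2B1, MT2B, MT2C_Mm and MERVL_2A-int had estimates of 0.08, 0.15, -0.01 and 0.48. In QKO EpiLCs these families were higher than in WT by 0.93, 0.95, 0.76 and 0.38, under 2-fold (adjusted p under 0.05, edgeR).

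**Figure D4:**
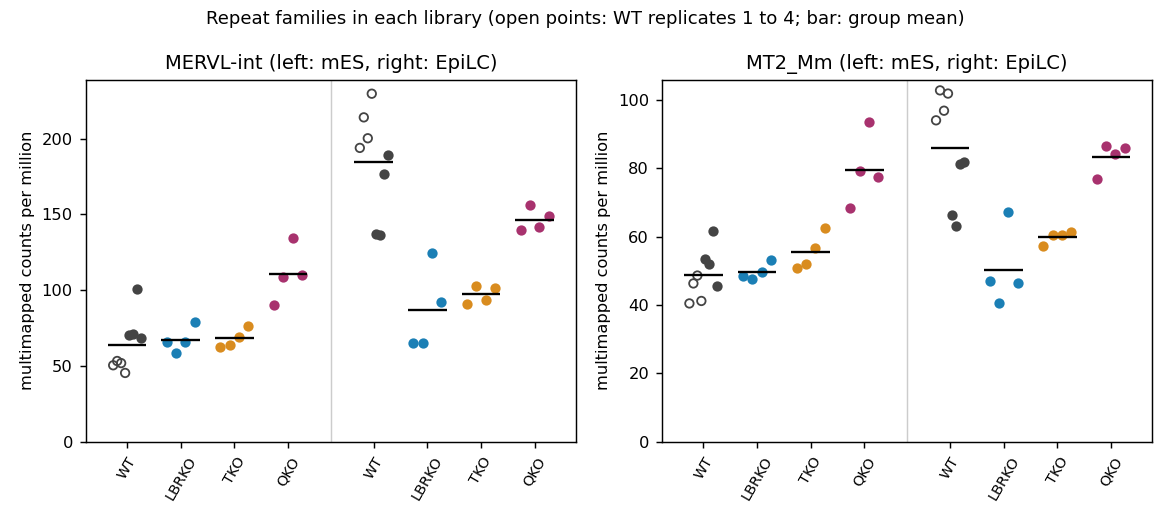
Multimapped CPM (y axis) of MERVL-int (left) and MT2_Mm (right) in each library by genotype and stage; points are libraries, open points WT replicates 1 to 4, and bars group means. For MERVL-int the WT EpiLC libraries lie at 137 to 230 CPM, above all LBRKO and TKO EpiLC libraries, and QKO EpiLCs at 140 to 156.

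The genes that varied most like Zscan4c between libraries of the same group were sought by the correlation of deviations from the 8 group means over the 40 libraries, among 12941 genes with a mean of at least 1 CPM, leaving out the 8 genes and Zscan4 paralogues. Pkia (r = 0.78), Nefm (0.73), Mep1b (0.73), Csrnp3 (0.73), T (0.72), Nsg2 (0.72), Srarp (0.71), Khdc1c (0.71), Cnga4 (0.71) and Rbbp7 (0.71) were highest, as a description. The other 7 genes were less alike to Zscan4c, from 0.14 for Zfp352 to 0.41 for Zscan4d. With WT replicates 1 to 4 and 5 to 8 centred apart, the 10 values fell to between 0.05 and 0.45 and those of the 7 genes to between -0.07 and 0.13. Much of the likeness thus went with the difference between the sets of WT libraries. Over all 12941 genes the 95th percentile of r was 0.46 before and 0.386 after this centring. Pkia (0.455) and Nefm (0.431) stayed above the latter value.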

How the data were processed

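Total RNA was sequenced with a ribosomal RNA depletion kit as paired reads (150 bases in the methods, 100 in the reporting summary). After removal of a leading T overhang (cutadapt 2.5), the authors aligned reads with STAR 2.7.10a, which also clipped adapters, to GRCm39 with GENCODE M30 genes. They deposited raw counts: reads with 1 alignment were counted over genes and single repeat copies with featureCounts 1.6.4, and reads with up to 100 alignments over genes and repeat families with TEcount. The multimapped table can therefore give a gene part of the reads of its copies. Whether counting used strand is not given in the sources used here. Genes that overlap another are uncertain.

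All 40 libraries entered 1 model with a mean for each of the 8 groups, fitted in edgeR 4.0.16 under R 4.3.3 after filterByExpr and TMM scaling. Contrasts used its quasi-likelihood test, and p-values were adjusted by Benjamini-Hochberg over the 23399 genes tested (25366 genes with 1142 repeat families in the multimapped table). A standard error is the log2 fold change divided by the square root of the test's F. DESeq2 1.42.0, another scaling, no filter, fits to the compared groups only, each set of WT libraries alone, the replicate number as a block and the omission of each library were tried as alternatives. So were the multimapped counts and the main fit without the fold threshold. The fit was checked on simulated counts. Ratios of summed reads carry exact 95% binomial intervals. RPKM used the exonic lengths of the gene table.

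The 8 genes and the lists (161 genes, 140 found) were chosen with earlier results of these data known, and annotation spellings of Tcstv, Eif1ad and Dux genes were added after the annotation was seen. The 8 genes were named in every comparison, and list genes were named where called, as regulators or as paralogues. The 10 genes most like Zscan4c were named by rank. Sequences were read from GRCm39. Protein sequences were not used here. One upstream sequence is not reported here.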

Additional observations from a re-analysis of the deposited data

Results flagged for a closer look

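Among 35 gene and group combinations of 4 to 10 libraries examined, 2 held a library far from the others of its group, where chance marks about 1 in 20. Another 29 combinations had at most 3 reads in every library and were not examined. Zscan4d was at 1.06 CPM (35 reads) in TKO EpiLC replicate 4, and the nearest of the other 3 TKO libraries was at 0.533. Zscan4f was at 0 CPM in LBRKO EpiLC replicate 2, and the nearest of the other 3 was at 0.114. Both libraries stayed below all WT EpiLC libraries.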

How the results depend on the processing

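Of 560 log2 fold changes of single genes that had been called, under the alternatives other than omission of a library, 542 kept their direction and side of the threshold, 18 kept the direction but lost the call and 0 turned. Of 764 with a library omitted, the numbers were 741, 23 and 0. Calls gained under an alternative are not in these tallies. Genes that failed the filter under an alternative were left out of the first tally rather than counted as lost calls. The alternatives in that tally also included the main fit without the fold threshold, under which no call could be lost. That tally therefore overstates how many calls held. In mES cells the counts of genes lower in LBRKO, TKO and QKO were 6, 7 and 5. They were 2, 1 and 1 in fits to the compared groups only, where 2, 1 and 1 of the 8 genes passed the filter. Leaving out WT replicates 5 to 8 gave 2, 1 and 1, and leaving out replicates 1 to 4 gave 6, 6 and 6. In fits to the compared groups only, the genes that rose on passage were 2 in TKO and 1 in QKO, of 2 and 1 tested, and no value could be had for LBRKO on passage or for QKO against TKO in mES cells, as none was tested. The difference in passage from WT was 1 lower in LBRKO with WT replicates 1 to 4 alone, 3 higher in TKO with replicates 5 to 8 alone, and 1 higher in TKO by DESeq2.

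With each library omitted in turn, the counts of genes higher or lower ranged as follows. In mES cells they were 5 to 8 in LBRKO, 4 to 7 in TKO (4 without TKO mES replicate 2 or 4) and 4 to 6 in QKO. In EpiLCs they were 8 to 8 in LBRKO, 6 to 7 in TKO and 8 to 8 in QKO. On passage they were 8 to 8 in WT, 5 to 6 in LBRKO, 6 to 6 in TKO and 7 to 7 in QKO, and QKO against TKO stayed at 0 at both stages. The passage difference was 0 to 1 in TKO (1 without WT mES replicate 4) and 0 in LBRKO and QKO. The cause of these changes was not tested. Same-numbered libraries did not deviate together in all pairs of any comparison (r of 0.0442 to 0.578 for WT stages, 7 of 8 pairs over 0.1, and 4 of 8 libraries most alike to their own number), so the numbers were not taken as pairs. With the replicate block, 7, 5 and 4 genes were lower in LBRKO, TKO and QKO mES cells and 8, 7 and 8 in EpiLCs. The separate fits to WT sets of MERVL-int and the centring of WT sets for the likeness to Zscan4c were chosen after seeing the data. The search with stretches of 150 bases was also added after seeing the data. Low counts in naive cells limit every fold there.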
